A study of Mus musculus with 12 samples.

Results

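The genes described here encode the structural proteins of the extracellular matrix: the collagens (symbols Col, a type number, a and a chain number), the laminin chains (Lama, Lamb and Lamc) and the emilins (Emilin1 to Emilin3). They were chosen by symbol alone, through the RefSeq accession of each array probe. Of 58 such genes annotated in the mouse reference, 56 were named on the array among 19751 genes in all: 42 collagens, 11 laminin chains and 3 emilins. Col12a1 and Col6a3 had no named probe and were not analysed here. A probe was kept if 3 or more of the 12 arrays showed it well above background. By that filter, 45 of the 56 were tested (31 collagens, 11 laminin chains, 3 emilins) among 15369 genes, and 35 of the 45 were well above background on all 12 arrays.

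The cells were taken from CD-1 mouse embryos, from the medial telencephalon. This region at the inner edge of the future cerebral cortex contains the progenitors of the hippocampus and the cortical hem. In each of 4 groups of 3 arrays, a vector for a nuclear green fluorescent protein (EGFPNLS) was electroporated at E11.5 (embryonic day), and fluorescent cells were sorted 24 hours later, at E12.5. The 4 groups received an expression plasmid for Dmrta2, a second or a first set of siRNAs for Dmrt3 and Dmrta2, or control siRNAs. Dmrt3 and Dmrta2 are related transcription factors with a DM DNA-binding domain, and the design asks how gene expression responds to their loss or gain in the dorsomedial telencephalon. The control siRNAs were the only control for all 3 other groups, and a control with an empty expression plasmid is not among these arrays. Every group is a mixture of sorted fluorescent cells and not a single cell type, so fewer cells of a type and less RNA per cell cannot be told apart. The replicates are called independent in the design, with no statement of separate litters or embryos, so p-values measure the spread between these samples.

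Collagens are trimers of chains that wind around each other. Fibrillar collagens build the cables of connective tissue, fibril-associated collagens coat those cables, and type IV collagens form the meshwork of basement membranes. Laminins are trimers of an alpha, a beta and a gamma chain that anchor cells to basement membranes through integrins and dystroglycan. In the embryonic forebrain the pial basement membrane holds the end-feet of the neuroepithelial progenitors, while meningeal fibroblasts and blood vessels make much of the fibrillar and vascular matrix. Emilins are secreted glycoproteins associated with elastic fibres and the surrounding matrix.

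Levels are log2 processed signals relative to the 75th percentile of the array, so 0 marks that percentile, and levels of different probes are not compared with each other. Each difference is on the same log2 scale, with the standard error (SE) of a limma fit over all 12 arrays and p-values adjusted over all 15369 genes. A gene was called at an adjusted p under 0.05. All 10 telencephalic progenitor markers, among them Emx1 and Lhx2, were well above background on all 12 arrays. Dmrt3 stood at -0.10, 0.61 and 0.34 on plasmid arrays, at -0.81, -0.04 and -0.47 with siRNA set 2, at -1.13, -0.13 and -0.72 with set 1, and at 0.06, 0.33 and 0.68 with control siRNAs. All 6 siRNA arrays lay below the 3 control arrays, by 0.91 ± 0.26 (SE), with an adjusted p of 0.162 in limma, or 0.0283 when the slide was a block. Dmrta2 differed by -0.46 ± 0.14 in the siRNA arrays (adjusted p = 0.204) and by -0.50 ± 0.16 in the plasmid arrays, where it was not higher than in the control. No source used here says whether the plasmid carries the stretch that this probe reads, so the overexpression label rests on the labels alone, and plasmid arrays means the arrays labelled as Dmrta2 overexpression. The 4 arrays of a slide were 1 of each group, and a group kept 1 position on all slides, so position and group cannot be told apart.

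Against control siRNAs, few of the 45 genes changed. With both siRNA sets averaged, 1 of 45 rose and 0 fell, where 0.67% of all genes were called. With set 2, 1 rose and 2 fell, where 1.02% of all genes were called, and with set 1, 1 rose and 0 fell, where 0.234% were called. On plasmid arrays limma called 0 of 45, where 0.273% of all genes were called, and 7 of 45 had an unadjusted p under 0.05, as had 4.44% of all genes. The genes behind these counts were Emilin2, Emilin3 and Col27a1. In data simulated with the spread of these arrays, 57% of genes given a change of 1 log2 unit between set 2 and the control were called, and 91% of those given 2 units. The simulated noise was independent between arrays, while real deviations of same-slide arrays correlated at 0.02 to 0.60. The shares called are therefore only a guide to the real data.

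**Figure D1:**
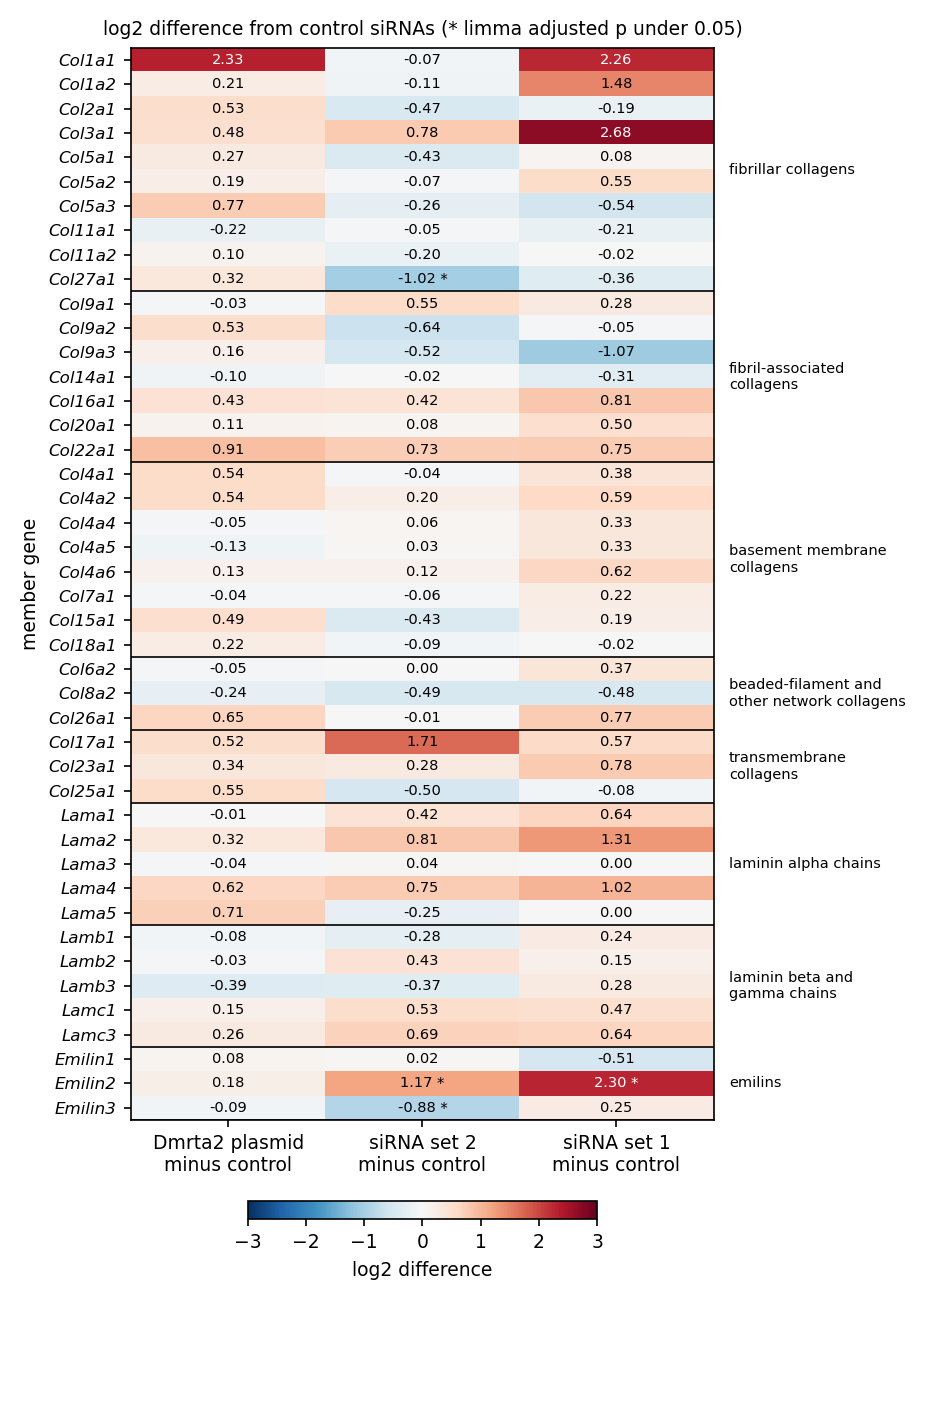
Log2 difference from control siRNAs of 44 of the 45 tested genes (rows, grouped by role), for plasmid arrays, siRNA set 2 and siRNA set 1 (columns, 3 arrays each against 3), printed in each cell, coloured from blue (lower) to red (higher), with a star for an adjusted p under 0.05. The 4 starred cells are Emilin2 in both siRNA columns, and Emilin3 and Col27a1 in the set 2 column.

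Emilin2 was the member with the clearest response. It encodes a secreted matrix glycoprotein with a C1q-like globular domain, also known from the basilar membrane of the cochlea. Its level was -3.09, -3.34 and -3.43 on plasmid arrays, -2.27, -2.25 and -2.37 with set 2, -0.95, -0.95 and -1.63 with set 1, and -3.61, -3.03 and -3.77 with control siRNAs. All 6 siRNA arrays lay above all plasmid and control arrays, and the 3 set 1 arrays lay above the 3 set 2 arrays. The rise over the control was 4.91-fold with set 1 (log2 difference 2.30 ± 0.22 SE, limma adjusted p = 0.00735) and 2.26-fold with set 2 (1.17 ± 0.22, adjusted p = 0.0426). With both sets averaged the rise was 3.33-fold (1.73 ± 0.19, adjusted p = 0.00662), and within the 3 slides the log2 difference was 2.00, 1.43 and 1.77. After a normexp background correction the differences were smaller, at 1.53 with set 1 and 1.12 with both sets, both still called, and 0.72 with set 2 (adjusted p = 0.103). The averaged call and the set 1 call held in each of 12 fits that left out 1 array. The set 2 call held in 3 of those 12, namely those without control replicate 2 or without the first or the third set 1 replicate, and the adjusted p ran from 0.0344 to 0.164. When the fit used only the arrays of the groups compared, the adjusted p for set 1 was 0.155. Between the siRNA sets themselves, Emilin2 differed by -1.12 ± 0.22 (set 2 minus set 1), which missed the threshold (adjusted p = 0.111) although the arrays did not overlap. On plasmid arrays it differed from the control by 0.18 ± 0.22, and those arrays overlapped.

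Some markers of microglia and macrophages were also called, while their summed level varied with the slide. Of 10 tested of these genes, 5 rose with set 2, 0 with set 1 and 4 on plasmid arrays, each against the control. Of all genes, 1.02%, 0.234% and 0.273% were called in these comparisons. Over all 10, the median difference was 1.21 with set 2, 0.57 with set 1 and 1.15 on plasmid arrays. Their summed level, on the linear scale relative to the 75th percentile, was 13.0 to 24.2 on plasmid arrays, 13.0 to 25.0 with set 2, 11.3 to 26.0 with set 1 and 13.8 to 24.7 with control siRNAs. In every group it was highest on replicate 1 and lowest on replicate 2, and each replicate number is 1 slide. On each array 9 or 10 of the 11 markers named on the array were well above background, and Spi1 was on none. The part of such cells in the Emilin2 result was not tested.

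Emilin2 has 2 annotated transcription starts on the minus strand of chromosome 17 (RefSeq, GRCm38.p6). Their windows, from 250 bases before to 50 after the start, are shown because this gene carries the response to the siRNAs, with matches to GGGCGG or its reverse complement (the GC box bound by Sp1-type factors) in capitals.

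Emilin2 start 1, chr17:71311507-71311806, minus strand: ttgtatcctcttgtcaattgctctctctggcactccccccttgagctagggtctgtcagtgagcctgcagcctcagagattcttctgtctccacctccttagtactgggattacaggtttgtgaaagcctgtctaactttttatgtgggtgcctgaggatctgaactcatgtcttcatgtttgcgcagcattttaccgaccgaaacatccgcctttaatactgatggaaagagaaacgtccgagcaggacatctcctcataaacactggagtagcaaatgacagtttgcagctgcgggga

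Emilin2 start 2, chr17:71310962-71311261, minus strand: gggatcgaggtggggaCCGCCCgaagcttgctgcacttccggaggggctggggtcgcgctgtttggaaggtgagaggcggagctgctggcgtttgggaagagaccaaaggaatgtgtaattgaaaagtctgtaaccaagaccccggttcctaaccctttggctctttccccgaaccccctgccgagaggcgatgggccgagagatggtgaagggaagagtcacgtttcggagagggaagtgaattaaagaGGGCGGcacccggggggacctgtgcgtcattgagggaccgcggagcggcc

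The GC box occurred 2 times in the window of start 2 and 0 times in that of start 1. Over all 32851 promoter windows of the same length, 35.7% held a GC box, against 27 of 46 windows (58.7%) of the 41 members with an entry. The letters ACANTGT, searched on both strands as a core of DM-domain binding sequences, were in 1 of the 46 member windows (that of Col28a1) and in 7.54% of all windows. They were in neither Emilin2 window, which says only that these letters are not there.

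Emilin3 encodes a family member that lacks the C1q-like domain. It stood at -3.85, -3.41 and -3.64 on plasmid arrays, at -4.28, -4.48 and -4.50 with set 2, at -3.12, -3.37 and -3.37 with set 1, and at -3.58, -3.70 and -3.34 with control siRNAs. The 3 set 2 arrays were the lowest of the 12. Emilin3 fell with set 2 to 54.3% of the control signal (log2 difference -0.88 ± 0.15, adjusted p = 0.0321), while with set 1 it differed by 0.25 ± 0.15 (adjusted p = 0.662). Set 2 against set 1 differed by -1.13 ± 0.15 (adjusted p = 0.0292), with -1.16, -1.11 and -1.13 in the 3 slides. Both calls were fragile. Each was lost with normexp, with the array median as centre, without the filter on dim probes and with only the arrays of the groups compared, and the call against set 1 also with quantile normalization. With normexp the differences were -0.45 against the control and -0.54 against set 1. Each call held in 3 of 12 fits without 1 array. Against the control the call held without set 1 replicate 1, set 1 replicate 2 or plasmid replicate 2, with adjusted p-values from 0.0382 to 0.118. Against set 1 it held without control replicate 2, control replicate 3 or plasmid replicate 2, with adjusted p-values from 0.0344 to 0.138.

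Emilin1, an elastic-fibre glycoprotein, was dim and well above background on 7 of 12 arrays. It differed from the control by 0.08 ± 0.34 on plasmid arrays, by 0.02 ± 0.34 with set 2 and by -0.51 ± 0.34 with set 1, none of them called. The 3 emilins thus had 3 patterns: Emilin2 higher with both siRNA sets, Emilin3 lower with set 2, and no called difference for Emilin1.

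**Figure D2:**
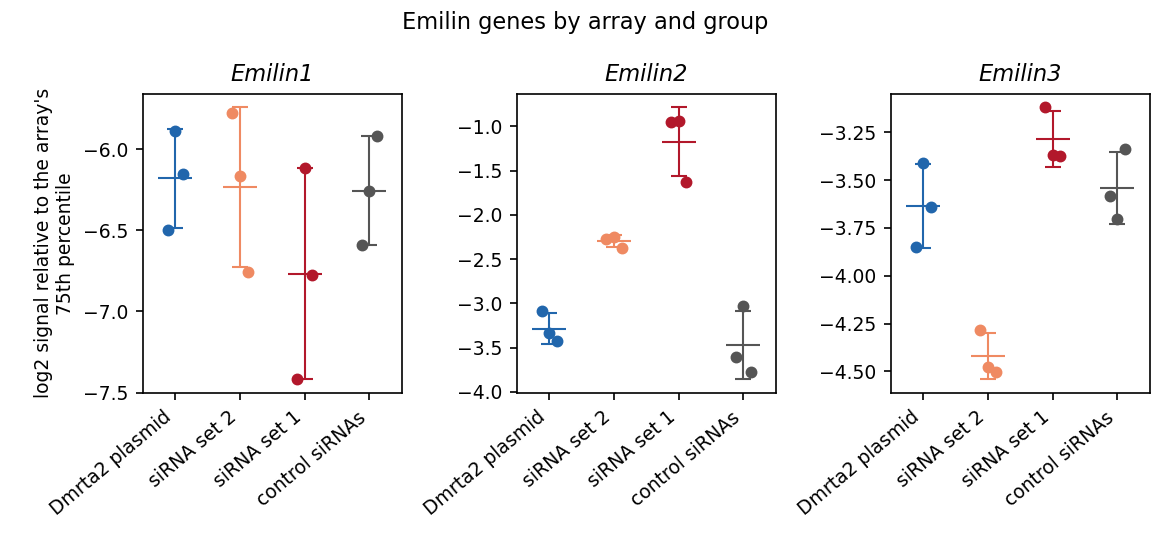
Level of Emilin1, Emilin2 and Emilin3 (log2 signal relative to the 75th percentile of the array) on each array (points), with the group mean and SD (bars, n = 3), for plasmid arrays, siRNA set 2, siRNA set 1 and control siRNAs; each panel has its own scale. Emilin2 lies between -2.37 and -0.95 on siRNA arrays and between -3.77 and -3.03 on plasmid and control arrays, and Emilin3 is lowest on the 3 set 2 arrays.

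Among the fibrillar collagens, 10 of 11 genes were tested; Col24a1 was well above background on no array. Relative to the control, 9 of 10 were higher on plasmid arrays (median difference 0.30, 0 called), 1 of 10 was higher with set 2 (median -0.16, 1 called lower), and 5 of 10 were higher with set 1 (median 0.03, or -0.04 without replicate 1, 0 called). Medians over all genes tested were between -0.01 and 0.00 in these 3 comparisons.

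Col27a1, a fibrillar collagen of developing cartilage, stood at -4.22, -3.91 and -4.11 on plasmid arrays, at -5.84, -5.16 and -5.27 with set 2, at -4.81, -4.74 and -4.76 with set 1, and at -4.29, -4.54 and -4.38 with control siRNAs. The set 2 arrays were the lowest, the set 1 arrays came next, and the plasmid arrays were the highest, with no overlap between any 2 of the 4 groups. It fell with set 2 to 49.3% of the control signal (log2 difference -1.02 ± 0.17, adjusted p = 0.0321), while set 1 differed by -0.36 ± 0.17 (adjusted p = 0.526). The set 2 call held in 4 of 12 fits without 1 array, namely without set 1 replicate 1, set 1 replicate 2, set 2 replicate 2 or plasmid replicate 2, and the adjusted p ran from 0.0421 to 0.125. It was lost in 5 of 9 other settings: quantile normalization, the array median as centre, no filter on dim probes, only the arrays compared, and normexp, where the difference was -0.33 (adjusted p = 0.513). With both sets averaged the difference of -0.69 ± 0.15 missed the threshold (adjusted p = 0.0733). The test of set 2 against set 1 was not passed (-0.65 ± 0.17, adjusted p = 0.205).

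The comparison of plasmid arrays with both siRNA sets averaged, added by the earlier work after values had been seen, called more members: 4 rose and 1 fell of 45, where 2.15% of all genes were called. The 4 higher ones were Col27a1, Col2a1, Col9a2 and Lama5, and the lower one was Emilin2 (-1.55 ± 0.19, adjusted p = 0.00302). Col27a1 differed by 1.02 ± 0.15 (2.02-fold, adjusted p = 0.00653) and was called in all 12 fits without 1 array, but not after a normexp background correction (0.44, adjusted p = 0.143).

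Col2a1 encodes the major collagen of cartilage, which is also made by the early neuroepithelium. It stood at 3.67, 3.97 and 3.75 on plasmid arrays, at 2.64, 3.00 and 2.76 with set 2, at 3.10, 3.24 and 2.88 with set 1, and at 3.29, 3.03 and 3.48 with control siRNAs. The 3 plasmid arrays were above the other 9. They exceeded the siRNA arrays 1.81-fold (0.86 ± 0.14, adjusted p = 0.0109), and the control by 0.53 ± 0.16, which was not called (adjusted p = 0.432).

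Col9a2, a chain of the type IX collagen that decorates type II fibrils, stood at -0.01, -0.05 and 0.34 on plasmid arrays, at -0.908, -1.307 and -1.003 with set 2, at -0.74, -0.40 and -0.31 with set 1, and at -0.76, -0.22 and -0.32 with control siRNAs. It too was higher on every plasmid array than on the other 9. The plasmid arrays exceeded the siRNA arrays by 0.87 ± 0.16 (1.83-fold, adjusted p = 0.0227) and the control by 0.53 ± 0.19 (adjusted p = 0.728). For the other type IX chains the plasmid arrays differed from the siRNA arrays by -0.44 (Col9a1, where a second probe gave 0.07) and by 0.96 ± 0.25 (Col9a3, adjusted p = 0.0959).

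Lama5 encodes the alpha chain of laminin-511, a basement membrane laminin of epithelia and vessels. Its levels were 0.58, 1.12 and 1.06 on plasmid arrays, -0.19, 0.01 and 0.06 with set 2, 0.12, 0.43 and 0.10 with set 1, and 0.37, 0.20 and 0.07 with control siRNAs. The plasmid arrays were again the highest 3. They exceeded the siRNA arrays by 0.83 ± 0.14 (1.78-fold, adjusted p = 0.0153) and the control by 0.71 ± 0.17 (adjusted p = 0.201). Calls for the plasmid against the siRNA arrays were lost without plasmid replicate 2 or 3 for Col2a1 and Lama5, and without any 1 of the 3 plasmid replicates for Col9a2. The highest adjusted p over these fits was 0.0674 for Col2a1, 0.0965 for Lama5 and 0.129 for Col9a2. Lama5 was also not called with the array median as the centre (adjusted p = 0.0604).

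**Figure D3:**
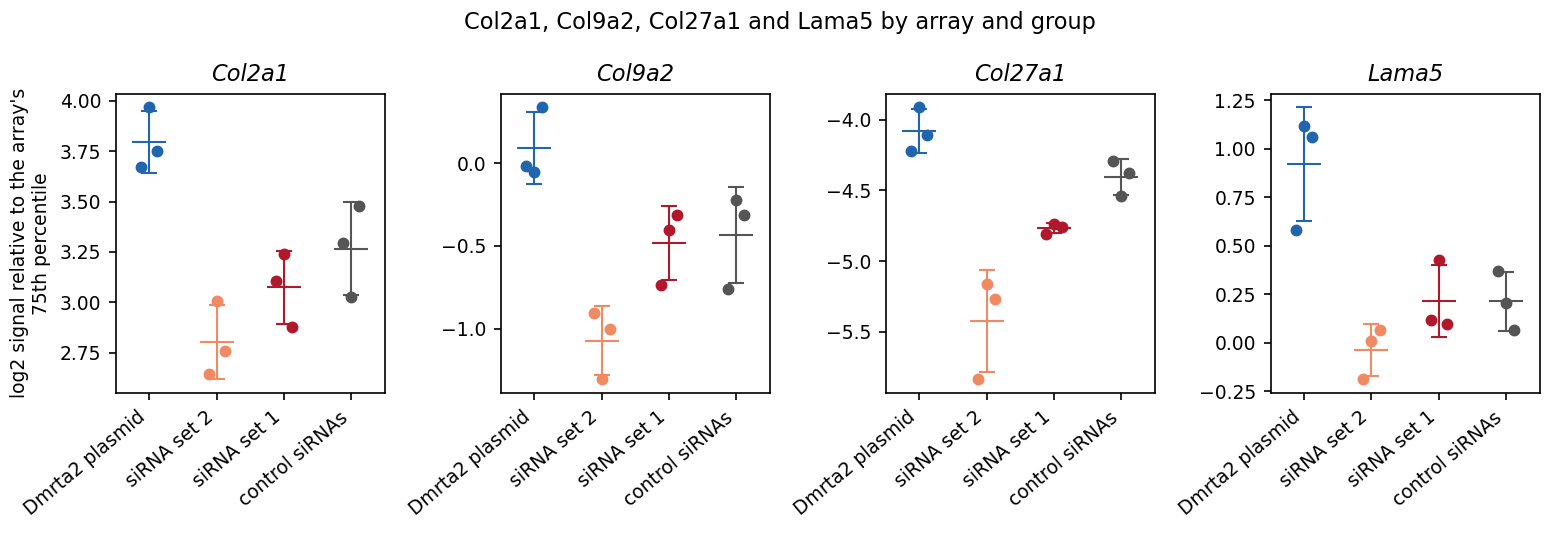
Levels of Col2a1, Col9a2, Col27a1 and Lama5 (log2 signal relative to the 75th percentile of the array) on each array (points) with the group mean and SD (bars, n = 3), for plasmid arrays, siRNA set 2, siRNA set 1 and control siRNAs; each panel has its own scale. In each panel the 3 plasmid arrays are the highest of the 12, and the mean of set 2 is the lowest of the 4 groups.

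More markers of surface ectoderm were detected on plasmid arrays, but their summed level was not higher there. Of 10 such markers, 8 were well above background on each of the 3 plasmid arrays, against 5 to 7 on each siRNA array and 5 or 6 on each control array. These counts were not adjusted for the share of all spots well above background. That share was 70.0% to 70.9% on plasmid arrays, 68.9% to 72.2% on siRNA arrays and 67.1% to 69.0% on control arrays. Their summed level, on the linear scale relative to the 75th percentile, was 7.32 to 10.54 on plasmid arrays, 6.66 to 9.65 with set 2, 6.47 to 12.02 with set 1 and 8.68 to 11.3 with control siRNAs. Cdh1, the epithelial cadherin, was well above background on no array. Krt8, a keratin of simple epithelia, was well above background on the 3 plasmid arrays and on none of the other 9, at least 3.56-fold higher than in the control; it passed the filter only through the plasmid arrays, so no p-value is given. The part of such cells in the Lama5 difference was not tested. Lama3 and Lamb3, laminin chains of stratified epithelia, differed on plasmid arrays from the control by -0.04 and -0.39, neither of them called.

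Across the 12 arrays, Col2a1 and Col27a1 varied together (Pearson's r = 0.899, Spearman's rho = 0.944), and so, less tightly, did Col2a1 and Col9a2 (r = 0.731, rho = 0.713). Pearson's r was 0.523 for Col9a2 with Col9a3, 0.438 for Col2a1 with Col9a3 and -0.434 for Col9a1 with Col9a2. Col2a1, Col27a1 and Col9a2 were all called higher on plasmid than on siRNA arrays, so that shared difference is part of their correlations. All these values are descriptions over 12 arrays that share 4 treatments and 3 slides.

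The type I and III collagens, products of fibroblasts and meningeal cells, were dominated by 1 array. Col1a2 stood at 1.20 on set 1 replicate 1 and between -3.55 and -2.50 on the other 11 arrays. Col3a1 stood at 0.22 there and between -6.47 and -4.96 elsewhere. Col6a1, a chain of the microfibrillar type VI collagen that the filter left out, stood at -2.50 there, and at -5.90 on the only other array where it was well above background, plasmid replicate 3.

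Col1a1 was high in more than that array. It stood at -2.05, -3.41 and -1.87 on plasmid arrays, at -4.89, -5.13 and -4.53 with set 2, at 0.39, -4.16 and -3.78 with set 1, and at -5.55, -4.06 and -4.72 with control siRNAs. All plasmid arrays were above all control arrays, by 2.33 ± 1.00 (5.04-fold), which was not called over the 12 arrays. Without set 1 replicate 1 the adjusted p of that difference was 0.107. The plasmid arrays then exceeded the siRNA arrays by 1.97 ± 0.41 (adjusted p = 0.0429), a call that was absent with all 12 arrays (1.24 ± 0.87, adjusted p = 0.618). That array was singled out by its high Col1a1 level, so the values without it are a description only. Its partner chain Col1a2 stood at -2.50, -3.01 and -3.04 on plasmid arrays and -2.75, -3.55 and -2.88 with control siRNAs, with overlap and a difference of 0.21.

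Because of that array, the differences of set 1 from the control were 2.26 for Col1a1, 1.48 for Col1a2 and 2.68 for Col3a1, none called. Without it they were 0.81, 0.09 and 0.79. The correlation of Col1a2 with Col3a1 over arrays was 0.962 with it and 0.444 without it.

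More markers of meningeal and mesenchymal cells were detected on that array, and the summed level of red blood cell markers was highest there. On set 1 replicate 1, 13 of 14 meningeal and mesenchymal markers were well above background, against 7 to 9 on the other 11 arrays. Lum, a proteoglycan of fibrous tissue, was at -0.80 there and between -8.86 and -6.69 elsewhere, and Foxc1, a factor of the meninges, was at -2.94 there and between -8.77 and -6.02 elsewhere. Twist2 was well above background on no array. The summed level of the list, on the linear scale, ran from 14.8 to 27.1 on plasmid arrays, from 8.08 to 14.2 with set 2, from 12.4 to 18.3 with set 1 (18.3 on replicate 1) and from 12.7 to 18.6 with control siRNAs, so the sum, unlike the count, did not set that array apart. The 8 erythroid markers, embryonic globin genes among them, summed to 5.33 to 11.11 on plasmid arrays, 3.58 to 7.997 with set 2, 18.73, 1.81 and 4.12 with set 1, and 2.04 to 3.95 with control siRNAs. Set 1 replicate 1 was thus the highest of the 12, and the plasmid arrays were all above the control arrays. Between 5 and 7 of the 8 erythroid markers were well above background on each array, and 0 of 7 tested were called against the control. The part of either kind of cell in the collagen levels was not tested.

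**Figure D4:**
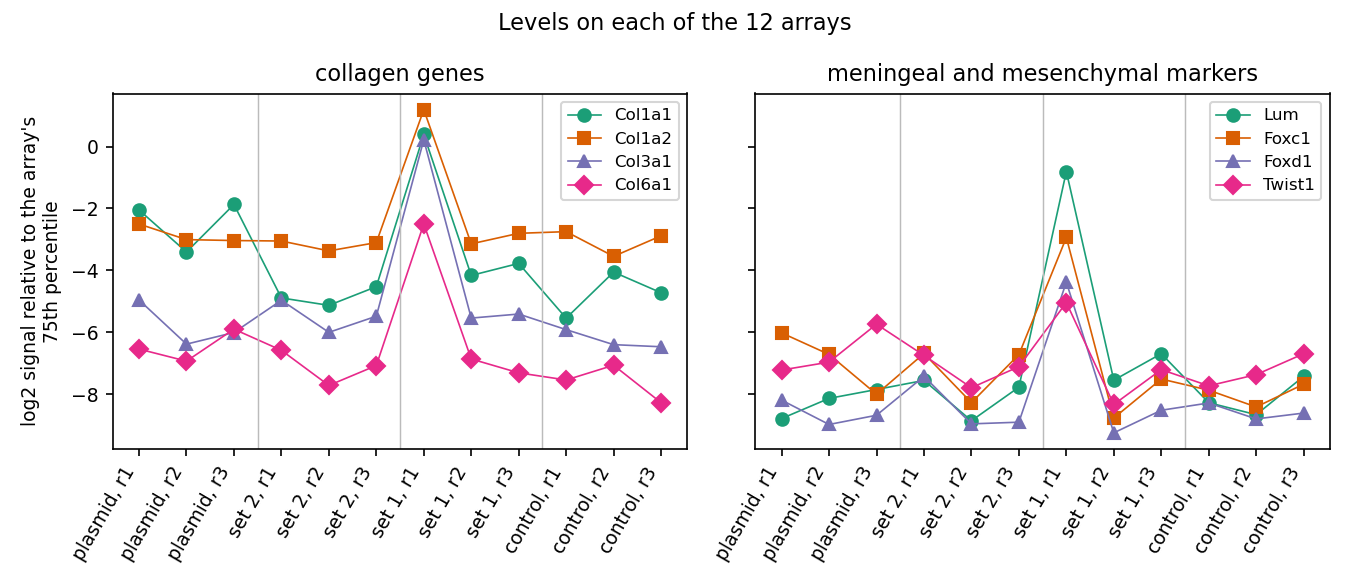
Levels (log2 signal relative to the 75th percentile of the array) of Col1a1, Col1a2, Col3a1 and Col6a1 (left) and of the markers Lum, Foxc1, Foxd1 and Twist1 (right) on each of the 12 arrays, ordered by group, where r1 to r3 are replicates and lines only link the points of a gene. On set 1 replicate 1 the 3 fibrillar collagens lie between 0.22 and 1.20 and Lum at -0.80, while Col1a1 is also above the control on plasmid arrays.

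Of the other fibrillar collagens, Col5a3 was well above background on all 3 plasmid arrays and on 1 array of each other group, and the plasmid arrays exceeded the siRNA arrays by 1.17 ± 0.34 (adjusted p = 0.125). Col5a1, Col5a2, Col11a1 and Col11a2 differed from the control by between -0.43 and 0.55 in the 3 comparisons, none called.

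Of the fibril-associated collagens, 7 of 8 genes named on the array were tested, and none was called against the control. Col22a1, a collagen of tissue junctions, stood at -2.24, -2.54 and -2.29 on plasmid arrays, at -2.61, -2.93 and -2.07 with set 2, at -2.55, -2.22 and -2.76 with set 1, and at -3.34, -3.05 and -3.41 with control siRNAs. All 9 treated arrays were above the 3 control arrays, which are shared by the 3 comparisons. The differences were 0.91 ± 0.22 on plasmid arrays, 0.73 ± 0.22 with set 2 and 0.75 ± 0.22 with set 1, with adjusted p-values of 0.232, 0.176 and 0.237. Col9a3 went the other way: the 6 siRNA arrays, at -6.47 to -5.39, were below the control arrays, at -5.07 to -4.88 (-0.80 ± 0.25, adjusted p = 0.218).

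Counting members whose arrays did not overlap with the control gave 9 of 45 on plasmid arrays (9 higher, 0 lower), where 7.55% of all genes did not overlap. It gave 14 of 45 with set 2 (6 higher, 8 lower), against 18.0% of all genes, and 12 of 45 with set 1 (10 higher, 2 lower), against 14.7% of all genes. With all 6 siRNA arrays, 7 of 45 did not overlap with the control (5 higher, 2 lower), against 5.32% of all genes. Plasmid against all siRNA arrays gave 6 of 45 (4 higher, 2 lower), against 7.12% of all genes, and set 2 against set 1 gave 14 of 45 (2 higher, 12 lower), against 14.0% of all genes. Col17a1 is counted among the members higher with set 2, both against the control and against set 1. It passed the filter on dim probes only through the set 2 arrays, so its place in these counts supports nothing.

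Among the laminins, all 11 chains were tested and none was called against the control. The alpha chains differed by a median of 0.32 on plasmid arrays, 0.42 with set 2 and 0.64 with set 1. Lama4, the alpha chain of laminin-411 in vessel walls, was above the control on all 9 treated arrays. It stood at -4.45, -4.74 and -4.47 on plasmid arrays, at -4.52, -4.90 and -3.84 with set 2, at -3.84, -4.04 and -4.56 with set 1, and at -5.06, -5.23 and -5.23 with control siRNAs. The differences were 0.62 ± 0.26, 0.75 ± 0.26 and 1.02 ± 0.26 for plasmid, set 2 and set 1, with adjusted p-values of 0.969, 0.232 and 0.156.

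Lamc1, the gamma chain shared by most laminins, was above the control on all 6 siRNA arrays, at 0.86, 1.12 and 0.66 with set 2 and 0.99, 0.81 and 0.66 with set 1, against 0.28, 0.55 and 0.21 with control siRNAs (0.50 ± 0.13 for both sets, adjusted p = 0.122). Lama1, the alpha chain of the pial laminin-111, stood at 1.39, 1.84 and 1.78 on plasmid arrays, at 1.79, 2.34 and 2.16 with set 2, at 2.26, 2.49 and 2.21 with set 1, and at 1.46, 1.51 and 2.07 with control siRNAs. The set 1 arrays were above the control arrays (0.64 ± 0.21, adjusted p = 0.285), and the other 2 groups overlapped with them. Lama2, the alpha chain of muscle and vessel laminins, followed the array that stood apart in part: it was at -3.06 on set 1 replicate 1 and between -5.97 and -4.49 elsewhere. Its difference for set 1 was 1.31 with that array and 0.56 without it, and a second probe gave 1.62 with it.

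The type IV collagens are encoded in pairs of genes that face each other, and Col4a1 with Col4a2 forms the basement membrane network found in all tissues. Col4a1 stood at -2.35, -2.62 and -2.36 on plasmid arrays, at -3.29, -3.61 and -2.17 with set 2, at -1.80, -2.74 and -3.27 with set 1, and at -3.19, -3.24 and -2.53 with control siRNAs. Col4a2 stood at -2.86, -3.12 and -2.64 on plasmid arrays, at -3.71, -3.74 and -2.19 with set 2, at -2.37, -2.75 and -3.35 with set 1, and at -3.64, -3.51 and -3.08 with control siRNAs. Both genes were high on the same arrays within a group, set 2 replicate 3 and set 1 replicate 1, and neither differed between groups beyond that spread (largest difference from the control 0.59 ± 0.40, for Col4a2 with set 1). Over the 12 arrays they correlated at r = 0.925 (rho = 0.909), and over 11 arrays without set 1 replicate 1 at r = 0.913. The X-linked pair Col4a5 and Col4a6 correlated at r = 0.620 (rho = 0.587).

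**Figure D5:**
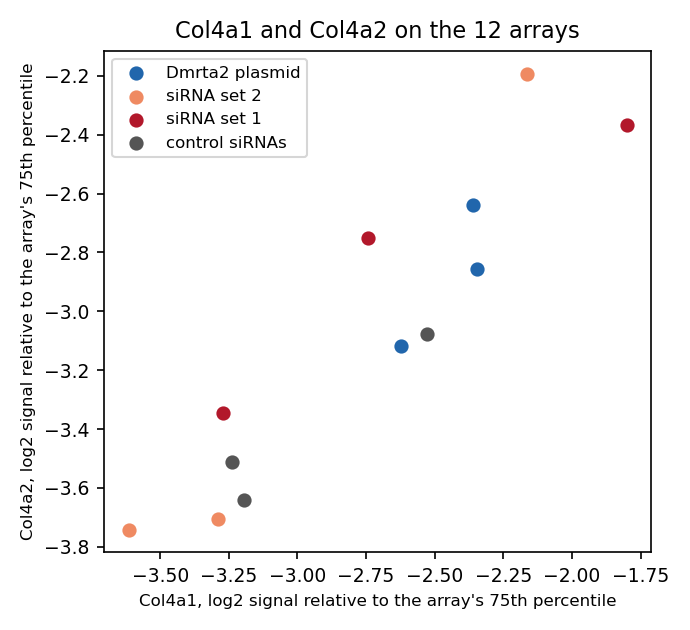
Level of Col4a2 (vertical axis) against Col4a1 (horizontal axis), both as log2 signal relative to the 75th percentile of the array, for the 12 arrays coloured by group (plasmid, siRNA set 2, siRNA set 1, control siRNAs). The points follow 1 line (r = 0.925) with the groups intermixed.

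The annotated starts of Col4a1 and Col4a2 lie 21 bases apart on opposite strands of chromosome 8, so their promoter windows overlap. The windows are shown because the levels of the 2 genes moved together, each read 5′ to 3′ on its own strand, with the 78 bases that both windows share in capitals (RefSeq, GRCm38.p6).

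Col4a1, chr8:11312777-11313076, minus strand: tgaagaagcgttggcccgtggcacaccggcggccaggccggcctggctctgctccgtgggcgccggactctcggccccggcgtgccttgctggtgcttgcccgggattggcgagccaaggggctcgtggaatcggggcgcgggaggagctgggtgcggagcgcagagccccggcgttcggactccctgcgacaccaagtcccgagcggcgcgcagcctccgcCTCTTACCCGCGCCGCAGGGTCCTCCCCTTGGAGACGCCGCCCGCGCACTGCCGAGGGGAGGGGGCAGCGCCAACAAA

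Col4a2, chr8:11312555-11312854, plus strand: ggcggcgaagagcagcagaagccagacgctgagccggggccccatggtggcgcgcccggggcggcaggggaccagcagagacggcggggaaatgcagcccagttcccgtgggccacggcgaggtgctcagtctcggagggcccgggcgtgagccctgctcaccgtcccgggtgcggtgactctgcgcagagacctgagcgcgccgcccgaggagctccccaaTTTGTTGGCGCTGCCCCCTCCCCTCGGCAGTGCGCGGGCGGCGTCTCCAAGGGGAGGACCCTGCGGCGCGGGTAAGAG

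Endothelial markers followed the arrays where Col4a1 and Col4a2 were high only in part. The 12 markers summed, on the linear scale, to 14.32, 7.81 and 14.15 on plasmid arrays, 13.59, 7.84 and 11.07 with set 2, 14.13, 5.75 and 12.12 with set 1, and 13.80, 7.48 and 12.54 with control siRNAs. The sum was lowest on replicate 2 in every group, that is, on 1 slide. Within set 1 it was highest on replicate 1, where Col4a1 and Col4a2 were also highest. Within set 2 it was highest on replicate 1, not on replicate 3. Between 7 and 10 of the 12 were well above background on each array, and Tek and Emcn on none. Of 8 pericyte markers, 5 to 7 were well above background on each plasmid, set 2 and set 1 array and 4 on each control array, with sums of 3.95 to 4.84 on plasmid arrays, 3.53 to 4.10 with set 2, 4.23 to 4.50 with set 1 and 3.75 to 4.70 with control siRNAs, and Des on none. Of all spots, 67.1% to 69.0% were well above background on control arrays and 68.9% to 72.2% on treated arrays. The marker counts were not adjusted for this. The part of vessel cells in the Col4a1, Col4a2 and Lama4 levels was not tested.

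The other basement membrane collagens changed little. Of 8 tested (Col4a3 was well above background on no array), 0 were called against the control in any comparison, and their differences lay between -0.43 and 0.62. Col18a1, which carries endostatin and is part of pial and vessel membranes, stood at 2.96, 3.42 and 3.22 on plasmid arrays, at 2.52, 3.20 and 2.92 with set 2, at 3.02, 2.80 and 3.05 with set 1, and at 2.91, 2.68 and 3.33 with control siRNAs, with all groups overlapping.

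Of the transmembrane collagens, Col17a1, a hemidesmosome component of skin, stood out with set 2. It was well above background on 1 plasmid array, on all 3 set 2 arrays, on 0 set 1 arrays and on 1 control array. Its levels were -7.12, -6.37 and -7.16 on plasmid arrays, -5.32, -5.55 and -6.20 with set 2, -6.87, -6.92 and -6.71 with set 1, and -7.92, -6.35 and -7.93 with control siRNAs. Its measured signals differed from the control by 1.71 ± 0.41 with set 2, which was not called. It passed the filter on dim probes only through the set 2 arrays, and 2 of the 3 control arrays were not well above background, so this difference is a description and no p-value is given. Set 2 arrays were at least 1.79-fold higher than set 1 arrays. Of 8 tested markers of surface ectoderm, 0 were called with set 2, and their median difference from the control was -0.23. Of the 10 listed, 7, 6 and 5 were well above background on set 2 arrays, against 5, 6 and 6 on control arrays. The part of such cells in the Col17a1 signal was not tested. Col23a1, another transmembrane collagen, was above the control on all 3 set 1 arrays (0.78 ± 0.19, adjusted p = 0.152), and its 3 probes gave differences between 0.78 and 0.98. For Col25a1, 2 probes well above background on all arrays disagreed in sign with set 2, at 0.31 and -0.50.

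Of the beaded-filament and other network collagens, 3 of the 10 named on the array were tested: Col6a2, Col8a2 and Col26a1. Their differences from the control lay between -0.49 and 0.77 and none was called. The 2 Col8a2 probes disagreed, at -0.48 and 0.74 with set 1, and the second of them was well above background on 1 array.

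Between the siRNA sets the balance of signs was uneven. Set 2 was below set 1 for 34 of 45 members, with a median difference of -0.37 against 0.02 over all genes. Limma called 1 of the 45, Emilin3, where 0.0781% of all genes were called. By the probe read for each gene, all 8 tested basement membrane collagens and 8 of 10 fibrillar collagens were lower with set 2. For Col4a4 this depends on the probe. The probe read gave -0.27 and another gave 0.26, both well above background on all 12 arrays. Without set 1 replicate 1, a choice made after seeing the data, the same role counts were found and set 2 was below set 1 for 33 of 45 members, but the median difference was -0.20. The difference of Col1a1 was -2.33 with that array and -0.88 without it, and the Emilin3 call was not made without it. Against the control the median difference of the 45 was 0.21 on plasmid arrays, -0.01 with set 2 and 0.33 with set 1 (0.26 without replicate 1), and these 3 values share the same control arrays.

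Genes that bind, fold, cut or sense this matrix were listed as well. Among 10 basement membrane partners, Sparc rose with both siRNA sets averaged; it encodes a collagen-binding glycoprotein. It stood at 5.09, 4.81 and 4.71 on plasmid arrays, at 5.39, 5.42 and 5.14 with set 2, at 5.16, 5.64 and 5.44 with set 1, and at 4.16, 4.61 and 4.49 with control siRNAs. All 9 treated arrays were above the control arrays. The difference was 0.94 ± 0.15 for both siRNA sets (adjusted p = 0.0291), 0.90 ± 0.17 with set 2 (adjusted p = 0.0424), 0.99 ± 0.17 with set 1 (adjusted p = 0.053, or 0.0428 with a slide block) and 0.45 ± 0.17 on plasmid arrays (adjusted p = 0.839).

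None of the other 9 partners was called against the control, nor any of 11 matrix receptors, 24 genes of collagen folding, modification and cross-linking, 8 elastic-fibre genes and emilin relatives, or 8 matrix-degrading enzymes and their inhibitors. In plasmid against siRNA arrays, 1 receptor, 1 partner and 1 enzyme gene rose. Itga6, an integrin alpha subunit that binds laminins, stood at 3.73, 3.91 and 3.86 on plasmid arrays, at 2.47, 3.08 and 2.48 with set 2, at 2.90, 3.05 and 2.71 with set 1, and at 3.38, 3.48 and 3.53 with control siRNAs. The plasmid arrays were the highest and the siRNA arrays the lowest, as for Col27a1 (1.05 ± 0.15, adjusted p = 0.00496). Against the control the siRNA arrays differed by -0.68 ± 0.15 (adjusted p = 0.0733, or 0.0364 with a slide block). Fbln1, a basement membrane glycoprotein, differed by 0.83 ± 0.18 (adjusted p = 0.047, or 0.0607 with a slide block). Mmp2, a gelatinase, differed by 1.55 ± 0.32 (adjusted p = 0.0361).

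The 11 members that the filter left out were Col4a3, Col6a1, Col6a4, Col6a5, Col6a6, Col8a1, Col10a1, Col13a1, Col19a1, Col24a1 and Col28a1. Of these, 8 were well above background on no array, which bounds their levels and does not show that the genes were silent.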

How the data were processed

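Total RNA of 12 samples was hybridised to one-colour Agilent mouse arrays, 1 sample an array, from 0.1 ug of RNA per the labels' protocols. The intensity used is the processed signal as deposited, made with Agilent Feature Extraction 10.5.1.1 per the submitters' processing notes; per the file headers, background was subtracted from it and arrays were not scaled to each other. The authors also deposited a table of log2 values whose scale and centring no label states. Set against the scanner values it matched them, scaled to the 75th percentile and centred by probe, with r above 0.999 on every array; it was an alternative. The deposited intensities of the spot and local background medians, per the file headers, served the background alternative.

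The log2 processed signal minus the 75th percentile of its array was averaged over spots of a probe, leaving out control spots and spots marked as outliers (136 to 218 of 43020 an array). The percentile ran from 572 to 1142 signal units, the share of spots well above background from 67.1% to 72.2%, and no spot was saturated. Precision is limited by how many arrays each group has. Of 39429 probes, 26055 were named by matching their RefSeq accessions, versions dropped, to genes of GRCm38.p6; the array's own annotation is on mm9. Each gene was read from its probe with the highest mean over the 12 arrays among those kept. Of the 56 members 40 had 1 probe and 16 several; every called member had 1.

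Differences were fitted with limma 3.58.1 in R 4.3.3 (lmFit, eBayes, 12 arrays, 4 groups, 8 residual degrees of freedom), two-sided, with Benjamini-Hochberg adjustment over 15369 genes. Where a probe was dim on all arrays of a group, a fold is given as at least the bright mean over the lowest signals well above background. The code was tested on simulated data. The slide equals the replicate number, per the file headers; deviations of same-slide arrays correlated at 0.02 to 0.60 over 18 pairs. The alternatives were a block for the slide, other scalings, centres, filters and probe rules, and leaving out each array.

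Members, gene lists and comparisons were chosen with earlier results of these data known. Named members are those called in any comparison, the 3 with the greatest difference each way in each comparison, the 3 with the highest mean signal (Col2a1, Col18a1, Lama1) and examples of each role. Col22a1, Lama4, Lamc1, Lum and Foxc1 were chosen as examples after their values were seen. Promoter windows are those of RefSeq, GRCm38.p6; no protein sequences were used. The values of 1 tested member and 2 markers are not reported here, although the counts include them.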

Additional observations from a re-analysis of the deposited data

Results flagged for a closer look

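In 6 cases a test found a difference between the groups' responses to manipulating Dmrt genes. For siRNA set 2 against set 1, Emilin3 differed by -1.13. For plasmid against siRNA arrays, Emilin2 differed by -1.55, Col27a1 by 1.02, Col2a1 by 0.86, Col9a2 by 0.87 and Lama5 by 0.83. That comparison holds no control arrays and was added after values had been seen. Against the control, 0 of 45 members were called on plasmid arrays. The Emilin3 call held in 3 of 12 fits without 1 array, and the Col27a1 call was lost with normexp. Those of Col2a1, Col9a2 and Lama5 were lost in some fits without 1 plasmid array.

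The other 3 are signals in genes that the filter on dim probes kept out of every comparison. Col13a1, a transmembrane collagen, was well above background on 1 array, plasmid replicate 1, at -2.31. Its other 11 arrays lay between -9.12 and -6.91. Col6a1 was well above background on set 1 replicate 1, at -2.50, and on plasmid replicate 3. Col6a4 was well above background on 1 array, set 2 replicate 2, at -5.00. None of the 3 was well above background on a control array, and none had a replicate at the same level.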

How the results depend on the processing

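Emilin2 with both siRNA sets averaged kept its call under all 9 alternative settings (differences 1.12 to 1.73) and without any 1 array (1.58 to 1.95). The calls with set 2 were the least stable. Members called for set 2 against the control were 3 in the fit described, 1 with quantile normalization, and 0 with the array median as centre, with no filter on dim probes, with only the arrays of the groups compared, and with normexp; leaving out 1 array gave 0 to 3. For set 2 against set 1 the count was 1, but 0 under those same 5 settings, and 0 to 1 without 1 array. For set 1 it was 1, but 0 with only the arrays compared, and 1 to 2 without 1 array. The count for both sets averaged ran from 1 to 2, that for plasmid against siRNA arrays from 2 to 6, and that for plasmid against control was 0 in each of the 12 fits without 1 array. With the slide as a replicate block, Dmrt3 (-0.91, adjusted p = 0.0283) became a call. No member's call changed except that of Col17a1 with set 2 (1.71), which passed the filter only through those arrays and so supports nothing. Signs reversed near 0: with normexp, Col17a1 for both siRNA sets was -0.040, Col9a3 for set 2 against set 1 was -0.033, and on plasmid arrays against the control Col8a2 was 0.029 and Lamb3 0.036; without 1 array, Col8a2 ran from -0.45 to 0.077, where 0.077 is without control replicate 1. The cause was not tested. Planned normexp over all spots was not run to a result, since on 3 arrays a few spots with extreme local background set its fit; it was replaced, after seeing the data, by normexp without spots of a marked background. The 75th percentile of each array and the 3 arrays a group limit small and dim differences.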
